A study of Mus musculus with 6 samples.

Results

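The repeat-element contigs of this data set are single copies of interspersed repeats against which direct RNA reads of mouse male germ cells were aligned beside the annotated transcripts. They were taken by name, as every contig of the deposited count table whose name does not start with ENSMUST, the prefix of annotated mouse transcripts. This gave 597 of 12114 contigs. The name before "_dup" gives the repeat and the number after it the copy, so that contigs of 1 repeat name are different copies of it. By that name 119 contigs were placed in LINE, 171 in SINE, 279 in LTR and 28 in DNA and other. The name gives no genome position, and no sequence of these copies was at hand, so the copies are described by name alone. The class DNA and other is a remainder: beside DNA transposons such as FordPrefect, Charlie, Tigger and MER5A it holds HAL1, a LINE by nomenclature, the satellite MMSAT4 and a few MER names of LTR origin.

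The study asked how poly(A) tails change as spermatocytes become spermatids. Germ cells of wild-type adult male C57BL/6J mice were sorted by DNA content and light scatter after Hoechst and propidium iodide staining, into a population enriched in pachytene and diplotene spermatocytes (P/D) and 1 enriched in round spermatids (RS). Each cell type has 3 samples and each sample is mRNA pooled from 3 mice, so the p-values below measure the spread between pools. Whole poly(A)+ RNA molecules were read by nanopore direct RNA sequencing, and the tail of each read was estimated from the current signal. Barcoded P/D samples shared 1 nanopore library and barcoded RS samples a separate one, which means that sequencing run and cell type cannot be told apart in any difference below. The sort enriches and does not purify, and by the paper's microscopy the P/D gate was clearly less pure than the RS gate. In such bulk samples fewer cells of a type and less RNA per cell cannot be told apart.

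Interspersed repeats are remnants and active copies of mobile DNA. LINEs are autonomous retrotransposons that encode their own reverse transcriptase, SINEs are short retrotransposons copied by the LINE machinery, LTR elements are endogenous retroviruses and their solitary long terminal repeats, and DNA transposons moved without an RNA intermediate. LINEs and SINEs end in an A-rich stretch, whereas the LTR carries its own promoter and polyadenylation signal and can start or end a host transcript. In the male germ line PIWI proteins, their piRNAs and DNA methylation silence young copies, and the meiotic and spermatid genome is transcribed broadly enough that many old copies are also read as parts of longer RNAs. A read on a repeat contig therefore shows RNA that contains the copy, not transcription that started in it.

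The samples held 244004, 305950 and 271326 reads in P/D and 316653, 474688 and 356015 in RS. In these, 17962 reads lay on repeat contigs. Of the spermatocyte markers (Piwil1, Sycp3, Ldhc and others, 9 of 10 with a contig) the summed level was 12332 to 13456 CPM (counts scaled to an equal library total) in P/D and 8890 to 9427 in RS. Not all of them fell: of their 14 transcripts tested by edgeR, 3 were higher and 9 lower in RS, beside 32.6% and 30.7% of all contigs tested. All 8 round spermatid markers had a contig, at 575 to 754 CPM in P/D and 2953 to 3084 in RS. The 6 elongating spermatid markers (protamines, transition proteins, Odf1 and Akap4) came to 1599.6 to 2045 CPM in P/D and 20230.3 to 25305 in RS. Their part in the differences below was not tested. The 5 spermatogonial and the 4 macrophage and blood markers have no contig in the table used here, so no level can be given for them. Of 5 Sertoli cell markers 1 had a contig, at 0 to 8.20 CPM, and of 5 Leydig cell markers 3 had one, with a summed level of 3.16 to 25.8 CPM that came from Insl3 alone.

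The listed repeat copies took a slightly smaller share of the reads in RS than in P/D. The share is of reads in the count table, and reads on contigs that the paper's read filter left out are not in it. The repeat contigs took 1.06%, 0.994% and 1.01% of the reads in P/D and 0.811%, 0.848% and 0.846% in RS, with 95% Wilson intervals of at most 0.960% to 1.10% and 0.780% to 0.877% over the samples of each cell type, which cover counting error only. The groups did not overlap, and the difference of -0.185 percentage points had p = 0.1 in a two-sided exact permutation test, the smallest p that 3 against 3 samples allow. Most of it lay in few copies: without the 10 repeat contigs with most reads the difference was -0.0352 percentage points (exact permutation p = 0.3).

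LTR elements carried about as many reads as the other classes together. In P/D they took 5.43, 4.88 and 5.41 reads per 1000 reads of the sample, and in RS 3.89, 3.85 and 4.10, so that all RS samples lay below all P/D samples (difference -1.30, SD 0.314 and 0.136, n = 3 each). SINEs took 2.22, 2.14 and 2.17 reads per 1000 in P/D and 1.86, 1.97 and 1.87 in RS, again without overlap, and the difference of -0.277 was a fraction of that of the LTRs. LINEs overlapped between the cell types, with 2.38, 2.42 and 1.93 reads per 1000 in P/D and 1.79, 2.00 and 1.91 in RS. DNA and other overlapped too, at 0.537, 0.507 and 0.568 in P/D and 0.562, 0.661 and 0.581 in RS, with a mean that was higher in RS by 0.0647. With the 17 RMER1 contigs, placed in LTR by name, counted in DNA and other instead, that difference was 0.198 without overlap, and that of the LTRs -1.43. By two-sided exact permutation tests p was 0.1 for LTR and SINE and 0.2 for LINE and DNA and other, and 0.2 for each of the 4 classes after Benjamini-Hochberg adjustment. Within the repeat reads the LTR share was 51.4% ± 2.31 (SD, n = 3) in P/D and 47.3% ± 1.67 in RS, and DNA and other went from 5.27% ± 0.313 to 7.20% ± 0.519. A single copy, Lx3B_dup3459, held 21.5% of all LINE reads and FordPrefect_dup29 24.5% of those of DNA and other, against 8.06% for MLT1G3_dup736 among LTRs and 6.47% for ID_B1_dup27209 among SINEs. Without Lx3B_dup3459 the LINE difference shrank from -0.342 to -0.0825 reads per 1000, and without FordPrefect_dup29 that of DNA and other grew from 0.0647 to 0.104.

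**Figure D1:**
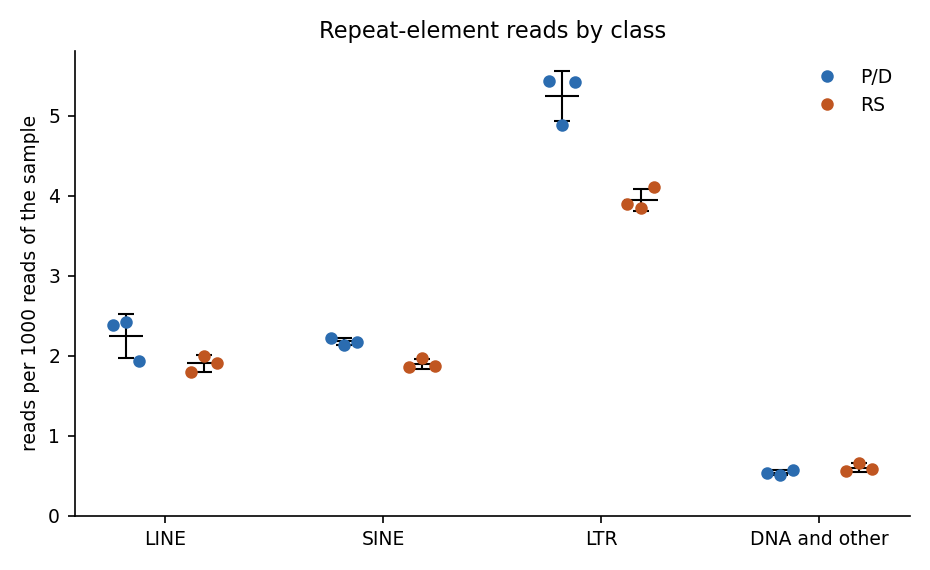
Reads on repeat contigs per 1000 reads of the sample (y axis, linear from 0) for the 4 classes, with 1 point per sample (P/D blue, RS orange) and the mean ± SD of 3 samples in black. The 3 RS samples lie below the 3 P/D samples for LTR and SINE, and the cell types overlap for LINE and for DNA and other.

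More of the listed copies had a read in round spermatids than in spermatocytes. A read was found on 331 to 354 repeat contigs in P/D and on 466 to 506 in RS, depending on the sample. Depth differs between samples, but RS replicate 1 and P/D replicate 2 are close in depth (316653 and 305950 reads) and had a read on 466 and 354 repeat contigs, while 60 and 83 contigs reached 10 reads. Split by reads over all 6 samples, the 27 contigs with 100 reads or more took 4.21 ± 0.198 reads per 1000 in P/D and 2.28 ± 0.194 in RS (SD, n = 3). The 219 contigs with 20 to 99 reads took 5.12 ± 0.346 and 4.29 ± 0.17. The 327 contigs with 1 to 19 reads went the other way, from 0.877 ± 0.0748 in P/D to 1.78 ± 0.146 in RS. In each of these 3 abundance groups the P/D and RS samples did not overlap (two-sided exact permutation p = 0.1 each). Of the least abundant contigs 249 had the higher mean CPM in RS and 78 in P/D, against 8 and 19 among the most abundant, and 24 contigs had no read in these samples. The share with the higher mean in RS was 76.1% of the scarce repeat contigs beside 75.6% of the 1649 annotated transcripts in the same abundance group, a share close to that background. For 20 to 99 reads these shares were 46.6% and 53.6%, and for 100 reads or more 29.6% and 48.6%. The paper kept contigs with 10 reads or more in 2 or more replicates of 1 condition, and not all its conditions are used here. Scarce contigs, and the 24 without a read, can thus be in the list through other samples. How far this sets the balance of scarce contigs between P/D and RS was not tested.

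Single copies were then tested by edgeR's quasi-likelihood test, fitted on all contigs that passed its default filter on low counts, with Benjamini-Hochberg adjustment over all 6097 contigs tested. Of these contigs 32.6% were higher and 30.7% lower in RS at an adjusted p below 0.05. The filter left 92 of the 597 repeat contigs, of which 16 were higher, 44 lower and 32 not called, with a median log2 fold change (RS over P/D) of -0.65 beside -0.03 over all contigs tested. Among LTR contigs 9 were higher and 27 lower of 46 tested (median -1.39). SINE had 3 higher and 8 lower of 19 (median -0.51), LINE 2 higher and 7 lower of 20 (median -0.27), and DNA and other 2 and 2 of 7 (median -0.33). These counts describe the contigs that passed the filter, which a copy high in 1 cell type passes more easily, and the balance turned without it. With no filter on counts 119 of 573 repeat contigs were higher and 76 lower, beside 29.3% and 21.0% of all contigs, and LTR contigs had 63 higher and 43 lower of 272. DESeq2 on the same counts called 60 repeat contigs higher and 52 lower, beside 22.0% and 12.2% of all contigs it gave an adjusted p. Both of these fits take in scarce contigs, which can be in the list through samples not used here. Their balance can therefore depend on selection too.

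**Figure D2:**
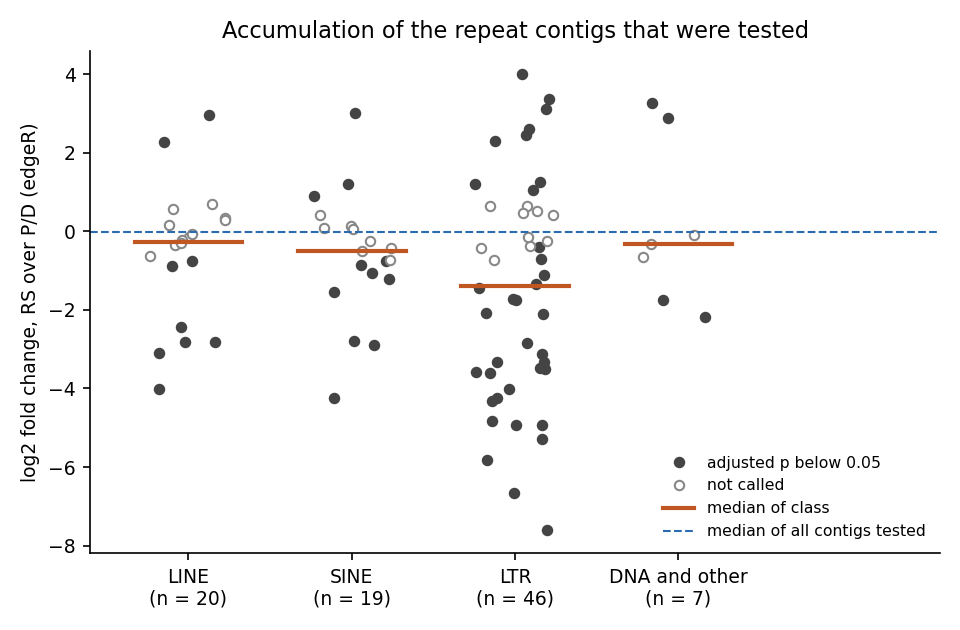
log2 fold change (RS over P/D, edgeR) of the 92 repeat contigs that passed the filter, by class, with 1 point per contig, filled where the adjusted p was below 0.05. The orange bars are class medians (-0.27, -0.51, -1.39 and -0.33 from left to right) and the dashed line is the median over all contigs tested, -0.03.

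The copies that fell most in RS were LTRs of rodent endogenous retroviruses. RMER15_dup14114 had 22, 20 and 20 reads in P/D and none in any RS sample. Against a floor of 3 counts over the RS samples it was at least 28.9-fold lower in RS (edgeR adjusted p = 2.39e-11). By the same floor RMER12C_dup3284, with 10, 12 and 10 reads in P/D and 0 in RS, was at least 14.9-fold lower (edgeR adjusted p = 8.15e-09). Among copies with at least 50 reads in every P/D sample, the lowest fold change was that of RMER15_dup6379, another copy of the same repeat. This copy had 54, 61 and 69 reads in P/D and 3, 6 and 6 in RS, a log2 fold change of -4.01 (SE 0.297, edgeR adjusted p = 1.08e-14). Next was L1MD2_dup745, a copy of an old mammalian L1 subfamily, with 74, 108 and 87 reads in P/D and 16, 24 and 11 in RS. Its log2 fold change was -2.82 (SE 0.214, edgeR adjusted p = 2.18e-14), and the lowest P/D sample lay far above the highest RS sample. MLT1A1_dup7860, an LTR of the old mammalian MaLR group of retroviruses, had 129, 180 and 129 reads in P/D and 39, 61 and 40 in RS (log2 fold change -2.07, SE 0.159, edgeR adjusted p = 2.83e-14). LTR72_RN_dup640 had 68, 61 and 86 reads against 21, 37 and 28 (log2 fold change -1.76, SE 0.212, edgeR adjusted p = 3.32e-09). In both of these copies every P/D sample was above every RS sample. The copies with at least 50 reads were chosen by their call and their P/D reads, which makes such separation likely.

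Lx3B_dup3459, of the rodent Lx group of L1 elements and the repeat copy with most reads, was lower in RS by less and varied more. It had 180, 221 and 81 reads in P/D and 108, 206 and 73 in RS, or 586 ± 249 and 327 ± 115 CPM (SD, n = 3). P/D replicate 3 was far below the other 2 and the groups overlapped in CPM. The log2 fold change of -0.77 (SE 0.200) passed in edgeR (adjusted p = 0.000996) and not in DESeq2 (adjusted p = 0.236). MLT1G3_dup736, the LTR copy with most reads, had 108, 129 and 115 reads in P/D and 109, 154 and 95 in RS (log2 fold change -0.41, SE 0.141, edgeR adjusted p = 0.0111, DESeq2 adjusted p = 0.106). Both leading SINE copies were not called: ID_B1_dup27209, of the B4 family, had 29, 40 and 38 reads in P/D and 47, 63 and 40 in RS (edgeR adjusted p = 0.823). For B3_dup63086, of the B2 family, these were 23, 53 and 31 and 36, 39 and 45 (edgeR adjusted p = 0.382). Of the leading DNA transposon copies, FordPrefect_dup29 (22, 56 and 56 reads in P/D, 30, 79 and 36 in RS) was not called, and MER5A_dup7811 fell, from 22, 27 and 27 reads to 11, 13 and 6 (log2 fold change -1.76, SE 0.313, edgeR adjusted p = 6.11e-06).

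Of the 16 copies called higher in the filtered edgeR fit, 3 had 20 reads or more in every RS sample, and these were LTRs. MURVY-LTR_dup1698, the LTR of a retrovirus known from many copies on the mouse Y chromosome, had 2, 2 and 3 reads in P/D and 21, 31 and 32 in RS. Its log2 fold change of 3.10 (SE 0.433, edgeR adjusted p = 7.15e-08) was the largest of the 3. The other 2 MURVY-LTR copies had too few reads to be tested: 4, 2 and 5 reads in P/D and 2, 3 and 1 in RS for MURVY-LTR_dup1767, and at most 2 in any sample for MURVY-LTR_dup123. LTR33_dup296 had 5, 10 and 1 reads in P/D and 34, 37 and 36 in RS (log2 fold change 2.30, SE 0.372, edgeR adjusted p = 1.13e-06). MLTR14_dup5711 had 10, 6 and 5 reads against 21, 26 and 21 (log2 fold change 1.25, SE 0.356, edgeR adjusted p = 0.00233). For these 3 copies the P/D and RS samples did not overlap, which their choice by call and by reads in RS makes likely. The largest fitted fold change among all repeat contigs, 4.01 for RMER17B_dup134 (SE 0.607, edgeR adjusted p = 3.33e-07), rested on 1, 0 and 1 reads in P/D and 11, 26 and 13 in RS.

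Contigs of subfamilies taken by name as young held few reads. RNA of young copies without a contig in the count table was not measured. The list (L1Md_A, L1Md_T, L1Md_F, L1Md_Gf, B1_Mus, B1_Mm, B2_Mm, IAP, MTA_Mm, ORR1A, RLTR10, ETn, RLTRETN, MURVY and MT2_Mm) took 0.418, 0.369 and 0.428 reads per 1000 in P/D and 0.281, 0.345 and 0.376 in RS, which overlapped (two-sided exact permutation p = 0.2). In edgeR 4 of these contigs were tested, and 2 rose and 2 fell. IAPLTR3_dup82, the LTR of an intracisternal A-particle, fell from 22, 23 and 17 reads to 2, 3 and 3 (log2 fold change -3.32, SE 0.412, edgeR adjusted p = 6.05e-09). B1_Mus1_dup93034 fell from 9, 13 and 12 reads to 1, 1 and 0 (edgeR adjusted p = 5.68e-08). RLTR10D_dup271 rose from 6, 7 and 11 reads to 16, 32 and 27 (log2 fold change 1.20, SE 0.342, edgeR adjusted p = 0.00245), and MURVY-LTR_dup1698, above, was the other. The L1Md copies, of the youngest L1 subfamilies, were not tested: L1Md_A_dup14651 had 1, 0 and 0 reads in P/D and 2, 6 and 7 in RS, and L1Md_T_dup18258 had 3, 2 and 3 reads in P/D and 0 in RS.

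Within the classes the families did not move alike. Among LINEs, L1 copies went from 2.17 ± 0.260 to 1.71 ± 0.0983 reads per 1000 (SD, n = 3), whereas the 22 contigs of the old L2 element and its relatives went from 0.0779 ± 0.0215 to 0.194 ± 0.0432, without overlap in either case. No L2 contig passed the filter of the edgeR test, and the limit given above for scarce contigs holds for them too. Of the L2 copies L2_dup12450 had no read in P/D and 5, 14 and 9 in RS, at least 6.68-fold higher against a floor of 3 counts over the P/D samples. Among SINEs the MIR copies, also old, went from 0.319 ± 0.0105 to 0.191 ± 0.0455 reads per 1000, B1 from 0.464 ± 0.00425 to 0.384 ± 0.00472 and B2 from 0.744 ± 0.0475 to 0.649 ± 0.00810. B4 copies, with the means of 0.650 ± 0.0409 and 0.674 ± 0.0109, overlapped. In the LTR class the MaLR copies (names starting MLT1, MTA to MTE and ORR1) went from 1.91 ± 0.0188 to 1.39 ± 0.0471 and all other LTRs from 3.34 ± 0.333 to 2.56 ± 0.183. Of these families, B4 apart, each had its P/D and RS samples separated (exact permutation p = 0.1 each). The L1 and MaLR falls lay in few copies. L1MD2_dup745 (mean 326 CPM in P/D, 44.0 in RS) and Lx3B_dup3459 (586 and 327) lost more between them than all L1 copies did. MLT1A1_dup7860 (531 and 121) and MLT1G3_dup736 (429 and 312) likewise lost more than all MaLR copies. The summed mean level of the other copies did not fall in either family.

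Poly(A) tails lengthened on repeat RNA of every class. The median tail of repeat reads was 113, 106 and 112 nt in P/D and 161, 159 and 163 nt in RS, and that of annotated transcripts 93.9, 92.2 and 91.0 nt in P/D and 158, 156 and 160 nt in RS. The distribution moved from a broad spread with its mode below 90 nt to 1 peak near 165 nt: in 15 nt bins the fullest P/D bin was 45 to 60 nt for SINE and DNA and other, 60 to 75 nt for LTR and 75 to 90 nt for LINE, and the fullest RS bin was 150 to 165 or 165 to 180 nt in all 4 classes. Tails of 120 to 210 nt were taken as long tails and those of 30 to 120 nt as short ones. In RS 14.0% to 17.1% of the repeat reads had a short tail, down from 51.0% to 52.7% in P/D.

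**Figure D3:**
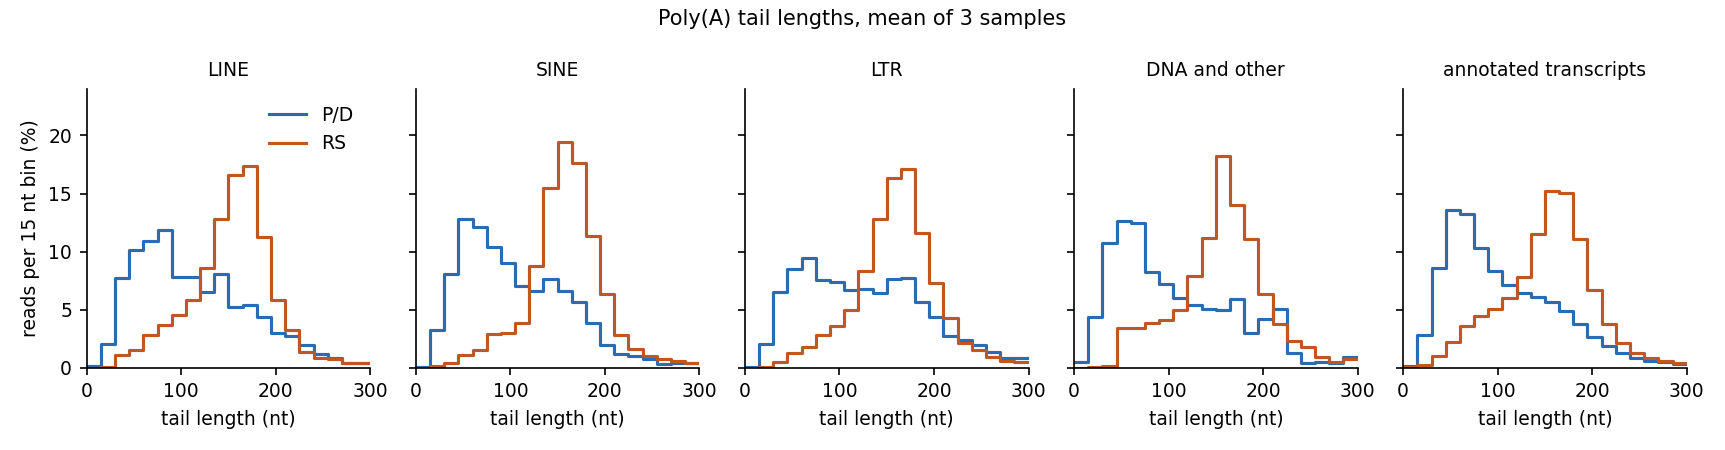
Poly(A) tail lengths of the reads on LINE, SINE, LTR, DNA and other contigs and on annotated transcripts (x axis, nt; y axis, percent of reads per 15 nt bin), as the mean of 3 P/D samples (blue) and 3 RS samples (orange). In every panel the RS distribution has 1 peak between 150 and 180 nt, and the P/D distribution of LTR reads has a second, lower rise in the same range.

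Long tails were more frequent in RS than in P/D in every class and every sample. On SINE contigs their share was 32.1%, 31.5% and 33.4% in P/D and 78.8%, 78.2% and 80.3% in RS, an increase of 46.7 percentage points, the largest of the 4 classes over pooled reads. LINE contigs went from 34.4%, 29.9% and 33.6% to 71.1%, 71.6% and 74.7%, an increase of 39.8 points. LTR contigs went from 39.7%, 39.2% and 36.9% to 74.8%, 73.1% and 72.8%, an increase of 34.9 points. DNA and other went from 31.3%, 24.5% and 29.9% to 66.9%, 67.5% and 72.0%, an increase of 40.2 points. With equal weight for every contig that had at least 10 reads in all 6 samples, the order was another: 59.9 points for DNA and other (2 contigs), 52.9 for SINE (7), 48.0 for LTR (5) and 36.9 for LINE (6). Each class had a two-sided exact permutation p of 0.1, and 0.1 after adjustment over the 4 classes, and the gap between the cell types was many times the SD between samples (0.997 to 3.57 points). On annotated transcripts the share averaged 29.6% ± 0.943 (SD, n = 3) in P/D and was 67.7%, 66.3% and 68.2% in RS. Repeat contigs together lay above them within each cell type, by 5.85 ± 1.11 points in P/D and 6.79 ± 0.315 points in RS (SD, n = 3), and the change of that gap, 0.941 points, was within the spread between samples (two-sided exact permutation p = 0.3). Without P/D replicate 2 it was 0.308, and with equal weight for every contig that had at least 10 reads in all 6 samples it was 13.4 points (exact permutation p = 0.1).

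The class order changed between the cell types. LTR minus annotated was 9.08 ± 0.581 points in P/D and 6.12 ± 1.35 in RS, whereas SINE minus annotated went from 2.80 ± 1.89 to 11.7 ± 0.525 (SD, n = 3). SINE lay 6.28 ± 2.45 points below LTR in P/D and 5.55 ± 1.77 points above it in RS, a change of 11.8 points (two-sided exact permutation p = 0.1, adjusted over the 6 class pairs 0.2). With equal weight for contigs with at least 10 reads in all samples (7 SINE and 5 LTR contigs) the change was 4.90 points (exact permutation p = 0.3). The LTR value had 2 parts. MaLR copies had a long-tail share of 33.3%, 28.6% and 30.2% in P/D, close to that of annotated transcripts, and of 79.2%, 76.0% and 78.1% in RS. All other LTRs already had 43.2%, 46.2% and 40.5% in P/D and reached 72.2%, 71.3% and 70.2% in RS. MaLR minus other LTRs was thus -12.6 ± 4.26 points in P/D and 6.55 ± 1.68 points in RS, without overlap (two-sided exact permutation p = 0.1). Much of the MaLR reads came from MLT1G3_dup736 and MLT1A1_dup7860. In P/D these had 108, 129 and 115 and 129, 180 and 129 of 463, 590 and 514 MaLR reads. In RS they had a smaller part, 109, 154 and 95 and 39, 61 and 40 of 448, 675 and 476. The gap to other LTRs without these copies was not computed. These other LTRs also had the most tails of 210 nt or more in P/D, 17.2% ± 0.568, beside 6.12% ± 0.295 on MaLR copies and 6.37% ± 0.402 on annotated transcripts, and in RS 12.6% ± 1.92, 9.32% ± 0.95 and 9.94% ± 0.782.

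**Figure D4:**
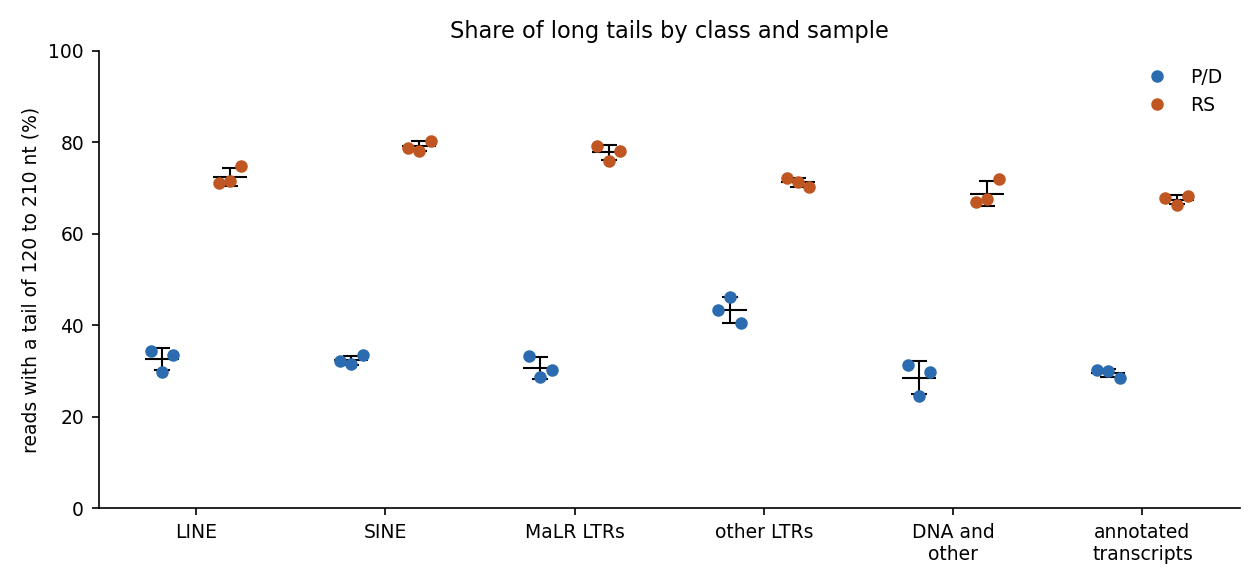
Percent of reads with a tail of 120 to 210 nt (y axis, 0 to 100) for the repeat classes, with the LTR class split in MaLR and other LTRs, and for annotated transcripts. Points are samples (P/D blue, RS orange) and black marks the mean ± SD of 3 samples. Other LTRs stand above the rest in P/D (43.3%) and SINE (79.1%) and MaLR LTRs (77.8%) are highest in RS.

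The small families showed the same direction with less precision. L2 and related copies had long tails on at most 28.6% of their reads in a P/D sample and on 82.0%, 76.7% and 84.9% in RS. Their P/D values rest on few reads, and the 0% of P/D replicate 3 is none of 17 reads, with a 95% Wilson interval up to 18.4%. B1, B2, B4 and MIR copies had means of 31.9%, 36.0%, 29.4% and 30.3% in P/D and 83.9%, 76.8%, 79.8% and 74.5% in RS. Young subfamilies had 34.3%, 38.9% and 47.4% in P/D and 75.3%, 77.4% and 74.6% in RS. In each of these families all RS samples had a higher long-tail share than all P/D samples (exact permutation p = 0.1 each). Tails of 210 nt or more went from 3.97% ± 1.22 to 15.3% ± 2.88 on young subfamilies, beside 10.2% ± 0.640 and 9.87% ± 0.998 on all repeats. They also rose without overlap on annotated transcripts (6.37% ± 0.402 to 9.94% ± 0.782) and on SINE contigs (4.68% ± 0.761 to 8.02% ± 1.11). For LINE, LTR and DNA and other the cell types overlapped.

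Mean tails of single contigs were compared by limma over the 7104 contigs with at least 10 reads in 2 replicates of a cell type and a tail in enough samples to fit. Of all contigs tested 54.1% had longer and 1.69% shorter tails in RS at an adjusted p below 0.05. Of 114 repeat contigs tested 55 were longer, 2 shorter and 57 not called, and the median change was 38.8 nt beside 37.4 nt over all contigs tested. Longer tails were called on 18 of 25 SINE contigs (median change 50.4 nt), 11 of 21 LINE contigs (42.9 nt), 21 of 57 LTR contigs (21.3 nt) and 5 of 11 of DNA and other (27.6 nt). Among SINEs these were 8 of 10 B4 copies, 5 of 6 B1 copies, 3 of 5 B2 copies and 2 of 4 MIR copies. In the LTR class 6 of 14 MaLR copies and 15 of 43 others were longer.

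Among contigs with at least 20 reads in every sample, the 5 largest increases called were on 3 LTR copies, a DNA transposon copy and a SINE copy. MLT1D_dup7152, a MaLR copy with 21 to 32 reads a sample, had mean tails of 79.2, 75.7 and 84.8 nt in P/D and 157, 165 and 164 nt in RS (81.8 nt longer, SE 5.89, limma adjusted p = 0.000498). FordPrefect_dup29 had 97.6, 90.3 and 87.5 nt against 168, 162 and 169 nt (74.2 nt, SE 5.90, limma adjusted p = 0.000498). In MLT1G3_dup736, tails went from 106, 99.0 and 92.5 nt to 165, 168 and 170 nt (68.6 nt, SE 6.05, limma adjusted p = 0.000498). These 3 were on average below 100 nt in P/D and above 160 nt in RS, with no overlap, which their choice among the largest called increases makes likely. RLTR9D_dup30 varied more in P/D, at 111, 89.5 and 141 nt against 181, 173 and 170 nt (60.7 nt, SE 13.4, limma adjusted p = 0.00935). ID_B1_dup27209 had 93.4, 103 and 112 nt in P/D and 162, 159 and 169 nt in RS (60.5 nt, SE 7.14, limma adjusted p = 0.000853). The LINE copy with most reads, Lx3B_dup3459, went from 98.1, 84.6 and 100 nt to 144, 143 and 149 nt (50.9 nt, SE 6.61, limma adjusted p = 0.00118).

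The following copies that fell in RS had longer mean tails there by differing amounts, and not all of these changes were called. MLT1A1_dup7860 was 38.2 nt longer in RS (SE 8.39, limma adjusted p = 0.00927) and LTR72_RN_dup640 49.8 nt longer (SE 7.01, limma adjusted p = 0.00159). The reads of RMER15_dup6379 had mean tails near or above 200 nt in both cell types, 217, 235 and 208 nt in P/D and 197, 267 and 238 nt in RS, and the difference of 14.0 nt was not called (SE 18.4, limma adjusted p = 0.552). Its RS means rest on 3, 6 and 6 reads. L1MD2_dup745 was at 115, 123 and 124 nt in P/D and 139, 130 and 151 nt in RS. It was 19.4 nt longer (SE 7.53) and was not called either (limma adjusted p = 0.0701). The 2 repeat contigs called shorter, named here after their values were seen, were B3_dup66373 (161, 150 and 177 nt in P/D, 130, 140 and 140 nt in RS, limma adjusted p = 0.0409) and MLT1D_dup4391 (172, 182 and 170 nt against 148, 158 and 161 nt, limma adjusted p = 0.0499). Their P/D means rest on 1 to 4 reads a sample, and neither was in the fit that required 10 reads in 2 replicates of both cell types, which called 30 repeat contigs longer and 0 shorter. Blocked on replicate number, the limma fit called 50 longer and 0 shorter.

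**Figure D5:**
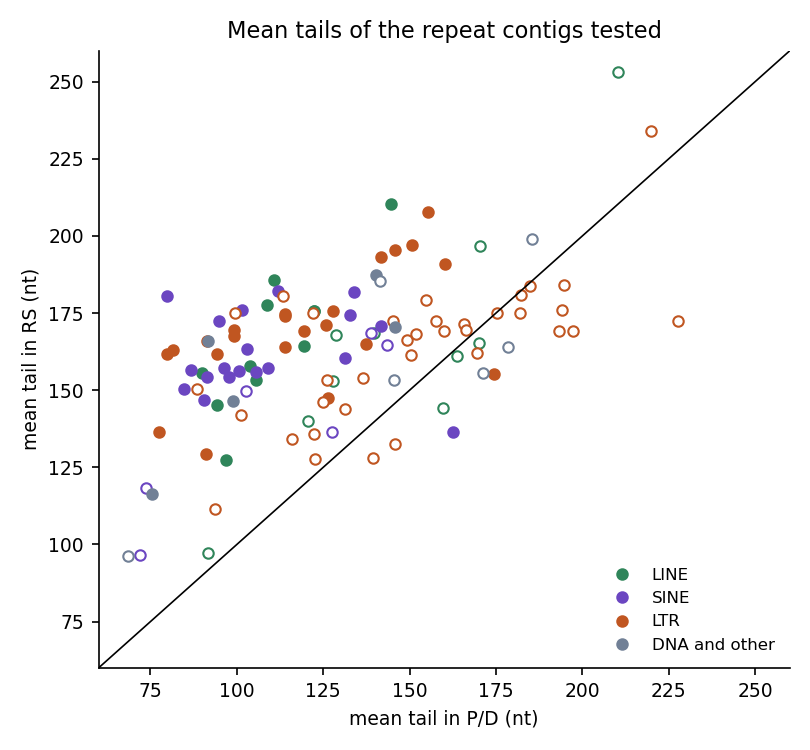
Mean poly(A) tail of the 114 repeat contigs tested in P/D (x axis, nt) against RS (y axis, nt), with 1 point per contig coloured by class, filled where limma's adjusted p was below 0.05, and the line of equal tails in black. SINE contigs lie high above the line on the left, and the contigs near or below the line at P/D tails over 150 nt are mostly LTRs.

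In P/D, reads on repeat contigs called higher in RS had long tails more often than reads on those not called or lower. Grouped by their edgeR call, the 16 repeat contigs higher in RS had long tails on 61.3%, 63.6% and 62.5% of their 40 to 77 P/D reads, and on 75.1%, 74.4% and 72.5% of their RS reads. The 32 contigs not called had 31.9%, 31.8% and 32.4% in P/D and 77.9%, 75.5% and 78.0% in RS, and the 44 lower ones 36.4%, 32.5% and 36.0% and 70.1%, 69.4% and 73.0%. Among annotated transcripts the same groups had P/D means of 39.9% ± 2.20, 30.8% ± 0.713 and 25.7% ± 0.561 (SD, n = 3), in that order. The order by call was the same except that repeat contigs lower in RS lay slightly above those not called. The groups were set by counts of these same samples, so the values are a description. The P/D gate also holds other cells, and which cells gave these P/D reads was not tested.

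Some repeat copies shared their reads with annotated transcripts. Of 17365 distinct repeat reads 1260 (7.26%) were also listed on an annotated transcript, with 14.5% for SINE, 5.57% for LINE, 5.14% for LTR and 3.25% for DNA and other. By sample this share was 6.57%, 6.71% and 6.17% in P/D and 8.77%, 6.43% and 9.24% in RS, which overlapped (two-sided exact permutation p = 0.3). In all 106 repeat contigs shared a read with an annotated transcript and 28 shared at least 10 with 1 such transcript. Positions of the transcripts are from GENCODE vM21 on GRCm38 (mm10), the build of the files, and where in a transcript the copy lies is not known here. ID_B1_dup73672 shared 93 reads, 85.3% of its own, with Ccdc117 (chr11:5528887-5542187, minus strand). B3_dup63086 shared 82 reads with a coding transcript of the chromatin remodeller Srcap (chr7:127511983-127529322, plus strand) and 73 with a retained-intron form of it. MLT1D_dup7152 shared 67 reads, 44.4% of its own, with Jrk (chr15:74702301-74709535, minus strand). For MLTR14_dup1174 with Gm17359, MTEa_dup10791 with Anxa2 and Lx8_dup7936 with Gmps (47, 40 and 33 reads) every read of the copy was also a read of the transcript. LTR33_dup296 shared 26 reads, 21.1% of its own, with Erich3, whose transcript rose with it (log2 fold change 3.40 beside 2.30 for the copy). L2_dup12450 shared 15 of its 28 reads with 1 transcript of Dynll2 (chr11, log2 fold change 3.70) and 11 with another (log2 fold change 3.56). Whether these are different reads is not given here.

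Other copies shared reads with each other and are not independent observations. ERV3-16A3_I-int_dup583 shared 89 reads, 94.7% of its own, with LTR72_RN_dup640. B1F_dup10832 shared 64 with ID_B1_dup27209, and L1_Mur3_dup9546, called lower in RS (log2 fold change -3.10), shared 58 with RMER15_dup6379. RMER1C_dup1302, called higher in RS, shared 34 of its 49 reads with RLTR9E_dup284. In all 15 pairs of repeat contigs shared at least 10 reads. On reads listed on a single contig, limma called 43 repeat contigs longer and 1 shorter, and the repeat share differed by -0.197 percentage points.

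Genes known to restrain retrotransposons in the germ line moved both ways. Of 33 such genes 19 had a contig here. Their 24 transcripts tested by edgeR gave 5 higher and 11 lower in RS, beside 32.6% and 30.7% of all contigs. Piwil1, the PIWI protein of the pachytene stage and also 1 of the spermatocyte markers, fell from 115, 127 and 113 reads to 8, 13 and 10 (log2 fold change -3.93, SE 0.217, edgeR adjusted p = 2.01e-18). Pld6, needed for the first steps of piRNA formation, fell from 51, 83 and 76 reads to 5, 16 and 10 (log2 fold change -3.17, SE 0.258, edgeR adjusted p = 1.28e-13). Trim28, a corepressor of endogenous retroviruses, fell from 137, 207 and 178 reads to 76, 127 and 106 (log2 fold change -1.18, SE 0.138, edgeR adjusted p = 1.62e-09). Gtsf1, a partner of PIWI proteins, rose in its leading transcript from 121, 122 and 121 reads to 179, 297 and 235 (log2 fold change 0.53, SE 0.130, edgeR adjusted p = 0.000556). The leading transcript of Mael had 438, 531 and 493 reads in P/D and 562, 740 and 519 in RS and was not called (edgeR adjusted p = 0.319). Another Mael transcript rose from 24, 30 and 27 reads to 44, 134 and 82 (log2 fold change 1.22, SE 0.225, edgeR adjusted p = 1.01e-05). By limma 15 of 31 transcripts of the list had longer and 1 shorter tails in RS, beside 54.1% and 1.69% of all contigs. The shorter one was Piwil1, by 42.6 nt (limma adjusted p = 0.00435).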

How the data were processed

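The authors aligned nanopore direct RNA reads (mm10, minimap2 2.20-r1061 per the labels' processing notes) to annotated transcripts and repeat copies, estimated tails with Nanopolish, and deposited a table of counts per contig and, per read, a poly(A) tail length in nt (other unit, not normalized). How the repeat reference was made is not given in the sources used here. The counts equal the tail rows in every cell (0 differ), and a read may be listed on several contigs. The members and lists were chosen with earlier results of these data known.

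Counts were tested with edgeR 4.0.16 (TMM, filterByExpr, quasi-likelihood), and mean tails with limma 3.58.1 on contigs with at least 10 reads in 2 replicates of P/D or RS, over all contigs, in R 4.3.3, both with Benjamini-Hochberg adjustment at 0.05. Values with 1 number per sample were compared by two-sided exact permutation tests (scipy 1.17.1). DESeq2 1.42.0 was an alternative. Depth was 244004 to 474688 reads a sample. Scripts were tested on simulated data. Named contigs were the 2 with most reads per class, the 5 highest and 5 lowest called fold changes where no sample of the higher cell type had under 50 reads (20 where fewer than 5 met this), the 5 largest called tail changes in each direction where no sample had under 20 reads (10 where fewer than 5 met this), and the young subfamilies, and the study's elongating spermatids were not analysed here. Contigs with 0 reads in a cell type, contigs with shared reads, L2 copies and RMER17B_dup134 were named after their values were seen.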

Additional observations from a re-analysis of the deposited data

How the results depend on the processing

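Of 129 alternatives of the values with 1 number per sample 15 leave the value as it is by construction, and the other 114 kept its direction. Leaving out each replicate gave -0.198 to -0.166 percentage points for the repeat share. For DNA and other reads per 1000 it gave 0.0348 (without RS replicate 2) to 0.0844 (without RS replicate 1). Counts of calls moved more. The repeat contigs called higher in RS were 119 with no filter, 2 where every sample needed 10 counts, 27 with repeat contigs alone in the fit, 60 by DESeq2 and 16 to 25 when each replicate was left out (25 without P/D replicate 2), beside 16. Lower calls were 76 with no filter and 5 where every sample needed 10 counts, beside 44, and 44 to 60 when each replicate was left out. Longer tails were called on 30 repeat contigs where both cell types needed 2 replicates of 10 reads and on 19 where every sample did, because fewer contigs were tested, beside 55, and on 46 to 52 when each replicate was left out. Shorter tails were called on 2, also with tails of 10 to 300 nt only and by the methods' unadjusted test, on 1 (log2 scale, reads on a single contig) or 0 (medians, both stricter read filters, replicate block, adjusted p below 0.01), and on 0 to 1 when each replicate was left out. The cause of the other moves was not tested.

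P/D and RS samples share replicate numbers, and the study states that cell types came from the same mice but not that the numbers match. The deviations of same-numbered samples from their group means correlated by only 0.019, 0.179 and 0.048 in counts and 0.029, 0.034 and 0.003 in tails over 3097 contigs, so the numbers were not taken as pairs. With the replicate block edgeR called 16 repeat contigs higher and 43 lower, and limma 50 longer and 0 shorter. Paired differences between single values keep the same mean, and 3 pairs allow no p below 0.25 in the exact sign-flip test. With 3 samples a cell type a p of 0.1 is the smallest of the permutation tests. Most copies were scarce in these samples: 422 of 597 repeat contigs reached 10 reads in no sample. Whether depth or a low level of these copies accounts for it was not tested.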
